A study of Mus musculus with 60 samples.

Results

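The 32 genes described here encode enzymes and regulators that build fatty acids and triglycerides in the liver, and they are 32 of the 38204 genes in the deposited table. The members were taken from a list of gene symbols that was chosen with earlier results of these data known. The RPKM of a gene's transcripts (198 of 123811 in all) were summed in each library. RPKM is a read count divided by the length of the transcript and by library size, so levels of different genes can be compared. The mice were male C3H/HeNCrl, an inbred strain prone to liver tumours, and RNA of the left lobe of the liver was depleted of ribosomal RNA and sequenced. They were 8 to 10 weeks old when they received 0.2 Gy of 56Fe (600 MeV/n), 16O (1 GeV/n) or 28Si (350 MeV/n) ions, or no ions (control). Livers were taken at 1, 2, 4, 9 and 12 months from 3 separate mice of each group, which gives 60 libraries, and all 3 ions share the 3 control mice of a time. The mice had free access to food, and the hour of collection was not given in the sources used here.

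Hepatocytes turn surplus sugar into fat. Pyruvate kinase (Pklr) feeds glycolytic carbon to the mitochondrion, the citrate carrier Slc25a1 exports it, and Acly, Acaca and Fasn make it into palmitate with NADPH from enzymes such as Me1, after which elongases (Elovl genes) and desaturases (Scd and Fads genes) modify the chain and acyltransferases (Gpam, Agpat2, Dgat2) load it onto glycerol. Insulin acts on much of this set through SREBP-1c, encoded by Srebf1, and glucose through ChREBP, encoded by Mlxipl, and many of the mRNAs vary with feeding and with the hour of the day.

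Depth, recovered from the steps that single reads leave in the RPKM, ranged from 11412665 to 40568208 mapped read pairs per library. Transcripts held 43.4% to 66.4% of mapped reads at 1 and 2 months and 56.0% to 88.4% at 4 to 12 months. All 10 hepatocyte markers were detected in every library, with Alb at 10209 RPKM or more, and the 8 adipocyte markers summed to 1.72 to 18.4 RPKM. Of these Fabp4 (1.33 to 16.5 RPKM) and Cidec (0.123 to 3.32 RPKM) were detected in all 60 libraries, whereas the defining Adipoq was at 0 in 31 libraries and never above 0.357 RPKM, Cfd at 0 in 55 and Ucp1 at 0 in 45. The highest sum was that of 16O replicate 2 at 12 months, and the part of these markers in the results was not tested. The summed RPKM of 8 Kupffer cell markers ran from 33.5 to 55.8 at 2 months and from 61.6 to 629.7 at 12 months. Some libraries lay apart from the other 2 of their group, judged over the 31 members other than Mogat1. In 16O replicate 2 at 12 months 18 members were lower by more than 1 on the log2 scale (median -1.21), as were 16.0% of all genes with a median of at least 1 RPKM. In 28Si replicate 2 at 9 months and in control replicate 2 at 12 months 9 members were lower by as much, with medians of -0.55 and -0.55. The labels carry a different letter for each group and no run or date, so a group and any run of its own cannot be told apart.

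**Figure D1:**
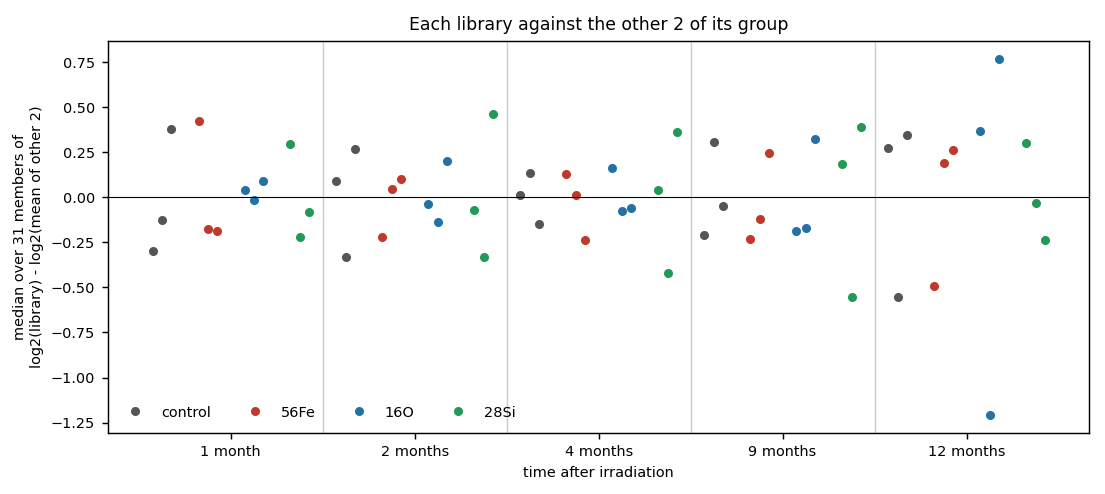
Median over 31 members of the log2 RPKM of a library minus that of the mean of the other 2 libraries of its group (vertical axis), for the 60 libraries by time and group. The lowest point, at -1.21, is 16O replicate 2 at 12 months.

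The promoters of 4 members are shown as examples. Acly and Gpam fell in 2 of the comparisons given below, Fasn fell in 2 and rose in 1, and Lpin1 rose in 2 and fell in 1. Thrsp, Acacb, Elovl5 and Scd1 also fell in more than 1 and are not shown. Each sequence is the 250 bases before the RefSeq start (GRCm38.p6, minus strand, written 5′ to 3′). Capitals mark matches, on either strand, to the letters ATTGG (the inverted CCAAT box that NF-Y binds) or GGGCGG (the GC box that Sp1 binds).
Fasn, chr11:120824548-120824797: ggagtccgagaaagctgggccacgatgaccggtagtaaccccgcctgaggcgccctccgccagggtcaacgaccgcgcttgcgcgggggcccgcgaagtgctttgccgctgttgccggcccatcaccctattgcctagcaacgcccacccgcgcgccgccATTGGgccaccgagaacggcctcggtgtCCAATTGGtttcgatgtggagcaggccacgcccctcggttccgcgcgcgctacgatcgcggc
Acly, chr11:100528001-100528250: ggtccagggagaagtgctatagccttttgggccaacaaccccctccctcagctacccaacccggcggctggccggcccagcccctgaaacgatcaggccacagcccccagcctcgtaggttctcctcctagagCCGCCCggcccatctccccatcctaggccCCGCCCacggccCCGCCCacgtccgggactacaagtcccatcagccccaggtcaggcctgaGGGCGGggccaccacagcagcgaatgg
Gpam, chr19:55127239-55127488: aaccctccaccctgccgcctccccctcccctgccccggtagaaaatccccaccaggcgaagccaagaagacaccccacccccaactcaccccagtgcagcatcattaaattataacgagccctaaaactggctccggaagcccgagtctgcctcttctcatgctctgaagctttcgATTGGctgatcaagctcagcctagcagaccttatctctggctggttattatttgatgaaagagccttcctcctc
Lpin1, chr12:16610967-16611216: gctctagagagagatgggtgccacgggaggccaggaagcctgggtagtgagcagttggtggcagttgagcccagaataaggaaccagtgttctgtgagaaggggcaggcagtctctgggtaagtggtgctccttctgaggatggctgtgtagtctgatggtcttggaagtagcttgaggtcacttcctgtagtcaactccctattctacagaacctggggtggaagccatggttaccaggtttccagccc
Fasn held 3 CCAAT boxes, at 90, 62 and 59 bases before the start, of which the last 2 overlap. Acly held 4 GC boxes, Gpam 1 CCAAT box at 74 bases before the start shown, and in the Lpin1 window none of the letters searched were present. Of the 32 members 25 were in the table of promoters, with 36 starts. The CCAAT letters were found for 14 of the 25 genes and the GC letters for 14, against 33.8% and 32.7% of the 32851 promoters in the table. The E-box CACGTG, which ChREBP and USF factors bind, was found for Elovl5, Lpin2, Mlxipl and Slc25a1, and the sterol response letters TCACNCCAC for Mlxipl, against 6.02% and 1.05% of all promoters. A member can have several starts and these shares count single starts, so the values stand side by side as a description.

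The members spanned a wide range of levels. Over the 60 libraries the median level was 1198 RPKM for Scd1, the desaturase that makes oleate, 212 RPKM for the elongase gene Elovl5 and 179.8 RPKM for Dgat2, which adds the last acyl chain of a triglyceride. Fasn, the fatty acid synthase on chr11:120805846-120824547 of GRCm38, had 117 RPKM, its partner Acly on chr11:100476353-100528000, which makes cytosolic acetyl-CoA, 78.7 RPKM, and Thrsp, which encodes the lipogenic protein Spot 14, 165 RPKM. Scd2, the paralogue of Scd1 that is typical of other tissues, had 0.794 RPKM, and reads that fit both genes could be counted for either. Mogat1, a monoacylglycerol acyltransferase gene, had a median of 1 read per library and was at 3 reads or fewer in 49 libraries, and Pnpla3, a lipid droplet hydrolase gene, had a median of 19 reads. Scd2 held at least 35 reads in each library, and the other 29 members at least 50. Some members overlap a gene on the other strand, and the sources used here do not say whether strand was counted. Gss, which overlaps Acss2, had a median of 20.6 RPKM, and Egfl7, which overlaps Agpat2, 6.32 RPKM.

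Ion mice were tested against the control mice of the same time by limma on log2(RPKM + 0.1) for genes that reached 0.5 RPKM in 3 or more of the 6 libraries, and the words rose and fell are kept for members whose p, adjusted over the whole table, did not exceed 0.05. Fold changes on this scale understate the change of genes with low RPKM. In the 15 comparisons 28 of 464 tests of members passed, 6 of them rises and 22 falls, beside 0.263% and 0.328% of the tests of all genes in the same comparisons. As the list was chosen with earlier results of these data known, shares of members and of all genes stand side by side here and below as a description. Mogat1, for 1 of the falls, passed the filter through the high values of the 9-month controls, so that its direction was set by the filter, and without it 27 of 461 tests passed, 6 rises and 21 falls. By time the 28 were 16 at 1 month, 4 at 4 months and 8 at 9 months. Of the 32 members 16 passed in at least 1 of these comparisons. In whole liver, fewer cells of a type and less RNA per cell cannot be told apart.

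**Figure D2:**
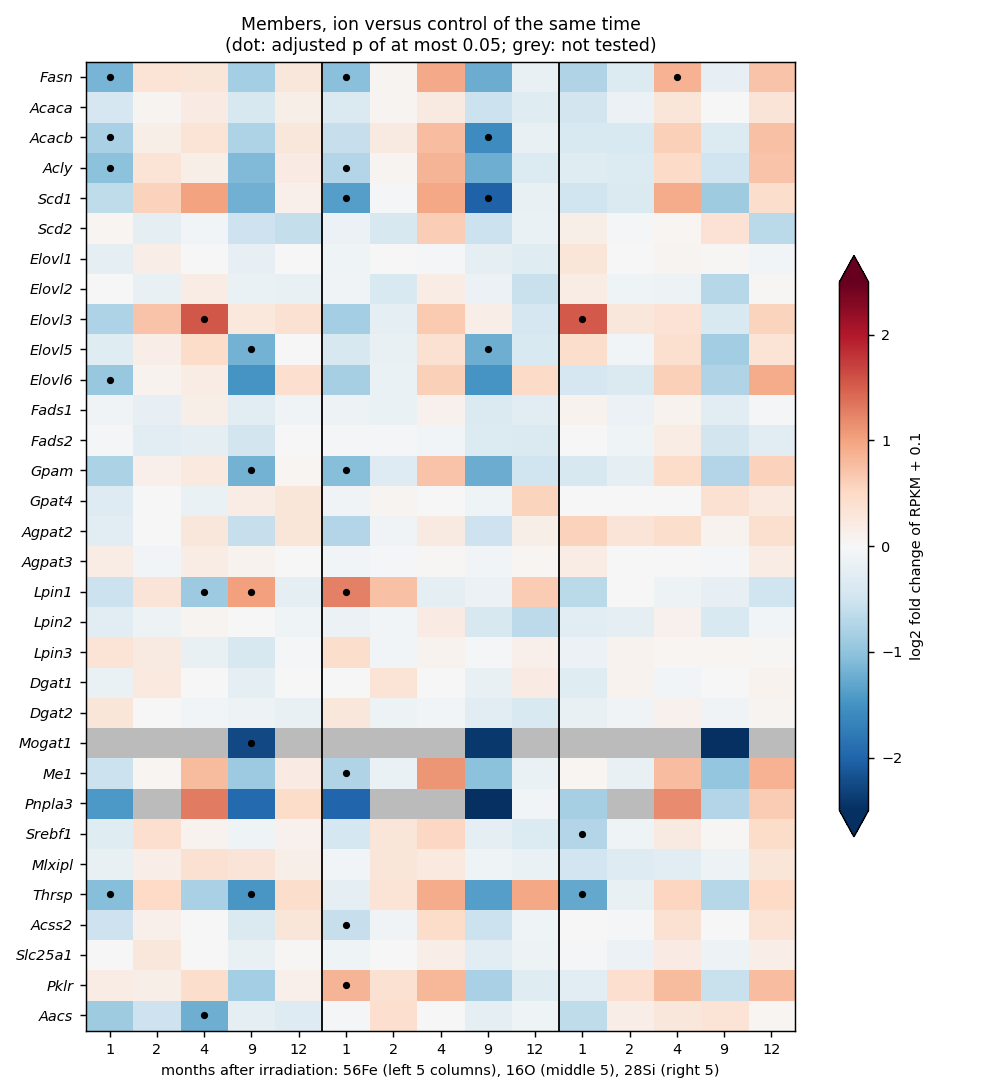
Log2 fold change of each of the 32 members (rows) for 56Fe, 16O and 28Si against the controls of the same time (columns), with blue for lower and red for higher in ion mice. The 28 dots mark an adjusted p of at most 0.05 and grey cells were below the filter. The dots stand in the columns of 1, 4 and 9 months.

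At 1 month after 56Fe, genes at the core of palmitate synthesis fell, among them Fasn, Acly and Thrsp, each by more than 1 on the log2 scale. In control mice Fasn had 199, 245 and 243 RPKM, and in 56Fe mice 136, 86.9 and 83.2 RPKM (log2 fold change -1.17, standard error 0.159, adjusted p = 0.00784). Thrsp had 184, 198 and 255 RPKM in control and 133, 78.6 and 90.7 RPKM in 56Fe mice (log2 fold change -1.07, standard error 0.150, adjusted p = 0.00876). The highest 56Fe mouse lay below the lowest control mouse for both genes. Acly had 96.9, 109 and 126 RPKM in control and 77.6, 42.2 and 44.7 RPKM in 56Fe mice (log2 fold change -1.03, standard error 0.171, adjusted p = 0.0192). Elovl6, the elongase that takes palmitate to stearate, had 19.8, 25.7 and 25.98 RPKM in control and 14.6, 10.8 and 10.9 RPKM in 56Fe mice (log2 fold change -0.95, standard error 0.129, adjusted p = 0.00784). Neither overlapped between the groups, and in all 4 genes 56Fe replicate 1 was the highest of its group. The last of the 5 was Acacb, the mitochondrial acetyl-CoA carboxylase gene (18.3 ± 2.61 against 10.3 ± 2.28 RPKM, SD, n = 3; log2 fold change -0.80, standard error 0.137, adjusted p = 0.0228). Hence 5 of 31 tested members fell and 0 rose, against 0.566% and 0.611% of all genes, and the members' median log2 fold change was -0.30 against 0.00 for all genes tested. Srebf1 itself had a log2 fold change of -0.30 (adjusted p = 0.404), and Scd1 one of -0.63 (adjusted p = 0.326). The 8 Kupffer cell markers were all higher after 56Fe (median log2 fold change 0.28), with sums of 51.5 to 73.1 RPKM against 40.3 to 60.9 RPKM, and of 10 hepatocyte markers Tat fell, and their part in the result was not tested. Without 56Fe replicate 2 limma called 0 of 31 members (16 at an unadjusted p under 0.05), without 56Fe replicate 3 only Elovl6 and Fasn passed, and without control replicate 2 only Elovl6, Fasn and Thrsp, while without a variance trend 0 passed (16 at an unadjusted p under 0.05) and limma-voom on recovered reads called 9.

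At 1 month after 16O, 6 members led by Scd1 and Gpam fell while Lpin1 and Pklr rose. Scd1, on chr19:44394455-44407879, had 1078, 1326 and 1583 RPKM in control and 503, 497 and 479.6 RPKM in 16O mice (log2 fold change -1.37, standard error 0.143, adjusted p = 0.00278). Gpam, the mitochondrial acyltransferase that starts glycerolipid synthesis, had 87.4, 116 and 114 RPKM in control and 48.01, 48.2 and 50.7 RPKM in 16O mice (log2 fold change -1.06, standard error 0.129, adjusted p = 0.00552). In both genes the 16O mice lay close together and clear of the controls. Lpin1, on chr12:16535669-16610966, which encodes a phosphatidate phosphatase and nuclear coactivator, had 24.6, 29.6 and 44.4 RPKM in control and 99.8, 50.4 and 80.6 RPKM in 16O mice (log2 fold change 1.25, standard error 0.211, adjusted p = 0.0196). Fasn had 87.5, 130.04 and 108 RPKM in 16O mice (log2 fold change -1.05, standard error 0.176, adjusted p = 0.0193). All 3 were above the highest control for Lpin1 and below the lowest control for Fasn. Of 31 tested members 6 fell and 2 rose, against 0.740% and 0.857% of all genes, with a median of -0.15 against 0.00 for all genes. The others that fell were Me1, the cytosolic malic enzyme gene (-0.75), Acly (-0.72) and the acetyl-CoA synthetase gene Acss2 (-0.57), all as log2 fold changes, with adjusted p values of 0.0476, 0.031 and 0.0464. Pklr rose (24.7 ± 4.65 against 43.4 ± 6.03 RPKM, SD, n = 3; log2 fold change 0.85, standard error 0.130, adjusted p = 0.0131). Scd1 and Gpam passed in all 6 fits without 1 library and under all 10 other settings, and Acss2 and Me1 in none of those 6 fits. Limma called 2 members without 16O replicate 1, control replicate 2 or the variance trend, 3 without 16O replicate 3, in RPKM as deposited or without the filter, and 4 without control replicate 1. The hepatocyte marker Tat fell after 16O too (log2 fold change -1.09, adjusted p = 0.0191 from limma), and its part in the result was not tested.

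At 1 month after 28Si the elongase gene Elovl3, whose liver mRNA is known for a daily rhythm and for higher levels in males, rose and Thrsp fell. Elovl3 had 37.004, 30.1 and 59.6 RPKM in control and 143, 125 and 99.9 RPKM in 28Si mice (log2 fold change 1.52, standard error 0.187, adjusted p = 0.0118). Thrsp had 94.1, 94.4 and 81.9 RPKM in 28Si mice (log2 fold change -1.28, standard error 0.131, adjusted p = 0.00551), all below the lowest control of the 3 given above. Srebf1 had 132, 128 and 133 RPKM in control and 93.005, 72.4 and 81.3 RPKM in 28Si mice (log2 fold change -0.73, standard error 0.117, adjusted p = 0.0434). None of the 3 genes overlapped between the groups. Of 31 tested members 1 rose and 2 fell, against 0.118% and 0.127% of all genes, and the median was -0.26 against -0.01. In RPKM as deposited limma called 0 (7 at an unadjusted p under 0.05), and without the trend 1. Without 28Si replicate 3 Elovl3 alone passed (1 member), without control replicate 1 or control replicate 2 Thrsp alone (1 member), and without control replicate 3 5 members did, while Srebf1 was lost without 28Si replicate 1 or 2 as well.

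**Figure D3:**
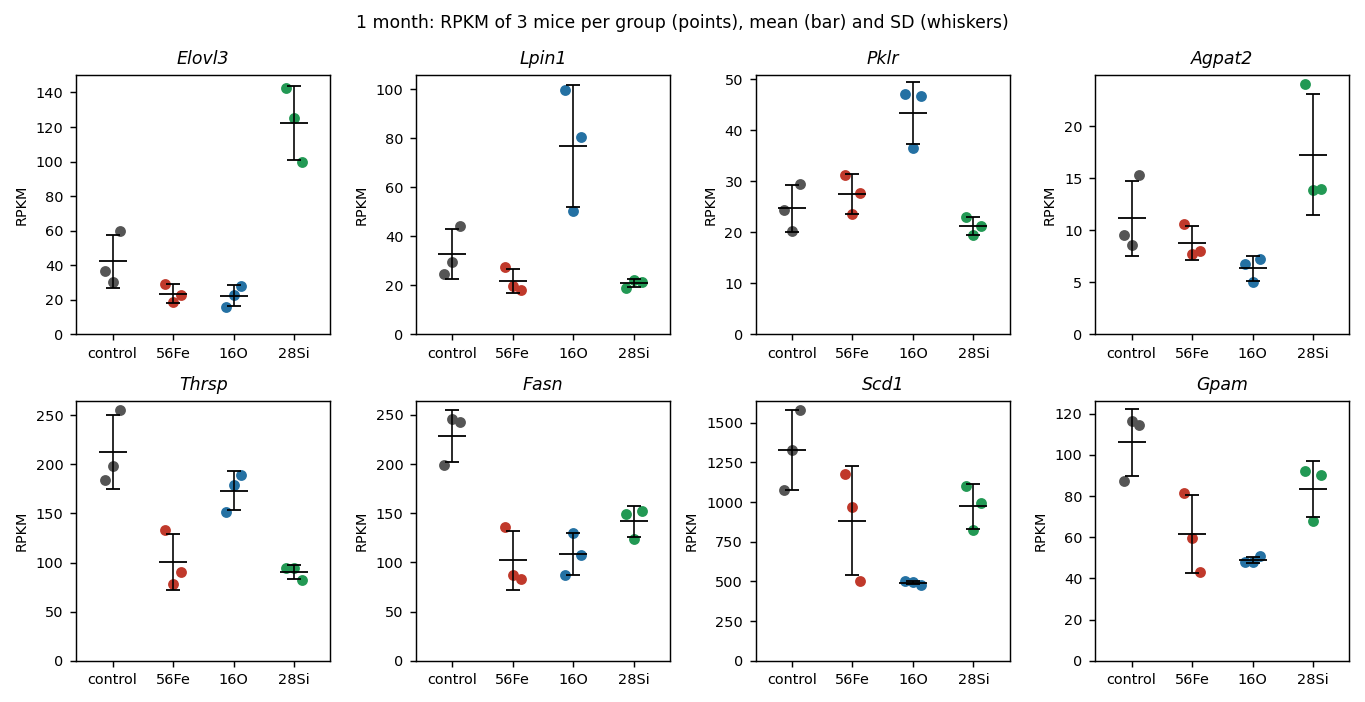
RPKM at 1 month of 8 members in control, 56Fe, 16O and 28Si mice, with points for the 3 mice, a bar for the mean and whiskers for the SD. Elovl3 stands highest in 28Si mice, Lpin1 and Pklr in 16O mice, and all ion mice lie below all control mice for Fasn.

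A test between the 3 ions at 1 month, an F test over the 12 libraries, found the ions to differ from each other in 13 of 31 tested members, against 12.2% of all genes. Elovl3 was near 123 RPKM after 28Si and had 29.3, 18.5 and 23.1 RPKM after 56Fe and 16.1, 22.9 and 28.01 RPKM after 16O (adjusted p = 2.67e-05 from limma). Lpin1 had 27.5, 19.7 and 18.1 RPKM after 56Fe and 18.99, 22.03 and 21.6 RPKM after 28Si, below all 16O mice (adjusted p = 0.000104). In Pklr the 16O mice had 47.004, 36.4 and 46.7 RPKM, against 31.3, 23.6 and 27.6 RPKM after 56Fe and 23.002, 19.5 and 21.2 RPKM after 28Si (adjusted p = 0.000158). The next was Agpat2, which makes phosphatidate, with 10.6, 7.72 and 8.004 RPKM after 56Fe, 6.79, 4.998 and 7.25 RPKM after 16O and 24.04, 13.9 and 13.99 RPKM after 28Si (adjusted p = 0.000831). For all 4 genes the ion that stood highest did not overlap with the other 2. Thrsp (adjusted p = 0.00163) was highest after 16O, with a mean of 173 RPKM against 101 and 90.2 RPKM. Acss2, Elovl5 and Elovl1 were highest after 28Si and had adjusted p values of 0.00359, 0.00363 and 0.0099. Elovl3, Lpin1, Pklr, Agpat2, Thrsp and Elovl5 passed in all 9 fits without 1 ion library and under all 9 other settings. The number of members was 6 in RPKM as deposited and 8 without the filter. With 28Si replicate 1 left out Acly, Elovl1, Gpam, Me1 and Scd1 did not pass, and Dgat2 did not pass without 28Si replicate 3. The hepatocyte marker Tat differed between the ions as well (adjusted p = 0.0198 from the F test), and its part was not tested.

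At 2 months limma called 0 of 30 tested members in each of the 3 comparisons, and Mogat1 and Pnpla3 were below the filter. After 56Fe 7 had an unadjusted p under 0.05 and the median was 0.14, after 16O 5 and -0.04, and after 28Si 6 and -0.10. Limma-voom called 0 in each. Of all genes 0% rose and 0% fell after 56Fe and after 16O, and 0.00903% rose and 0.00903% fell after 28Si. Between the ions 0 of 30 passed (10 had an unadjusted p under 0.05, and limma-voom called 1), against 1.16% of all genes. Fasn had 81.9, 72.7 and 102 RPKM in control mice, 78.2, 155 and 97.6 RPKM after 56Fe, 86.8, 67.1 and 107 RPKM after 16O and 66.7, 41.1 and 89.1 RPKM after 28Si, and all 4 groups overlapped. With 1 ion library left out the test between ions called 9 members at this time without 16O replicate 3 and 0 in the other 8 fits.

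At 4 months after 56Fe Elovl3 rose, and Aacs and Lpin1 fell. Elovl3 had 44.3, 45.3 and 40.5 RPKM in control and 165, 125 and 93.9 RPKM in 56Fe mice (log2 fold change 1.55, standard error 0.180, adjusted p = 0.0151). Aacs, which activates acetoacetate for lipid synthesis in the cytosol, had 46.8, 48.4 and 31.6 RPKM in control and 17.4, 14.4 and 21.7 RPKM in 56Fe mice (log2 fold change -1.21, standard error 0.175, adjusted p = 0.0288). Lpin1 had 28.5, 30.7 and 26.01 RPKM in control and 16.5, 14.97 and 13.2 RPKM in 56Fe mice (log2 fold change -0.91, standard error 0.107, adjusted p = 0.0152). None overlapped between the groups. Of 31 tested members 1 rose and 2 fell, against 0.275% and 0.266% of all genes, with a median of 0.14 against 0.00. Limma called 0 without 56Fe replicate 2 (8 at an unadjusted p under 0.05) and without a variance trend (9), and 5 members without control replicate 2, while Aacs was lost without 56Fe replicate 1 or control replicate 1.

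After 28Si at 4 months Fasn rose, with 102, 99.7 and 76.2 RPKM in control and 154, 143 and 151 RPKM in 28Si mice (log2 fold change 0.88, standard error 0.129, adjusted p = 0.0298). As deposited the 28Si values lay above all controls, whereas the fold change is of scaled values. The percentage of mapped reads on transcripts was 73.3, 56.0 and 82.0 in these 28Si libraries and 80.0 to 84.1 in the controls. The closeness of the 28Si values as deposited may thus not hold after scaling, and the part of this difference in the result was not tested. Fasn was 1 of 31 tested members, against 0.204% of all genes that rose and 0.178% that fell. The median of the members was 0.28 against -0.01. Limma called 0 without 28Si replicate 1, 28Si replicate 2, control replicate 1 or control replicate 3 (12 to 16 at an unadjusted p under 0.05), in RPKM as deposited (6), and without the filter (12) or the trend (13), as did limma-voom (15), and 3 members passed without control replicate 2. In the same comparison all 8 Kupffer cell markers were lower (median log2 fold change -0.53) and Cd5l fell, with sums of 71.1 to 88.7 RPKM after 28Si and 124 to 139 RPKM in controls, and their part in the result was not tested. After 16O limma and limma-voom called 0 of 30 (8 at an unadjusted p under 0.05, median 0.23), against 0% and 0% of all genes. Between the ions 2 of 31 members differed, against 0.671% of all genes. Thrsp had 168, 106 and 119 RPKM after 56Fe, 487, 439.8 and 395 RPKM after 16O and 263, 303 and 316 RPKM after 28Si (adjusted p = 0.00143). The 3 ions took separate ranges, in the order 16O, 28Si and 56Fe from the top. Aacs had 31.7, 47.9 and 48.2 RPKM after 16O and 43.6, 34.1 and 59.4 RPKM after 28Si, above all 56Fe mice (adjusted p = 0.00656). Both passed in all 9 fits without 1 ion library and under all 9 other settings, and Elovl3, Fasn or Lpin1 joined them, to make 4 members, without 16O replicate 1 or 16O replicate 2.

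At 9 months the control livers held the highest mean of the 20 groups for 20 of the 32 members, and Elovl5 fell after both 56Fe and 16O. Those means are of RPKM as deposited. The share of all genes that peaked in this group was not taken, so the count is a description only. The percentage of mapped reads on transcripts had a median of 85.4 in these controls, against 81.5 at 4 months and 80.8 at 12 months. After 56Fe, Elovl5, on chr9:77917364-77984519, which elongates polyunsaturated chains, had 496, 626 and 473 RPKM in control and 172, 225 and 326 RPKM in 56Fe mice (log2 fold change -1.19, standard error 0.208, adjusted p = 0.0318). Gpam had 145, 289.5 and 198 RPKM in control and 81.3, 82.99 and 106 RPKM in 56Fe mice (log2 fold change -1.18, standard error 0.228, adjusted p = 0.0379), and Thrsp 264, 612 and 230.3 against 123, 116 and 129 RPKM (log2 fold change -1.45, standard error 0.309, adjusted p = 0.0435). In each gene no 56Fe mouse reached the lowest control, and control replicate 2 was the highest of all 6. Mogat1, chosen by the filter as said above, had 22, 21 and 17 reads in control mice and 1, 2 and 5 reads in 56Fe mice, which is given as a description. At these counts its fold depends on the pseudocount, with log2 fold changes of -0.84 at 1 and -2.90 at 0.01. Lpin1 went the other way and rose (20.5 ± 3.57 against 41.95 ± 8.69 RPKM, SD, n = 3; log2 fold change 1.02, standard error 0.168, adjusted p = 0.0318). Of the 31 other members 3 fell and 1 rose, against 2.26% and 1.39% of all genes, and their median was -0.40 against 0.00. With Mogat1 counted among 5 calls in all, limma called 0 without 56Fe replicate 1, 56Fe replicate 2 or control replicate 2 (8 to 15 at an unadjusted p under 0.05), without the filter (18) and without the trend (15), 1 with the 12 libraries of the time point and without control replicate 1 (Gpam), and limma-voom called 8. In the same livers 8 of 8 Kupffer cell markers were higher (median 0.43), with sums of 131 to 214 RPKM after 56Fe and 89.7 to 161 RPKM in controls, and their part in the result was not tested.

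After 16O at 9 months Scd1, Acacb and Elovl5 fell, each by more than 1 on the log2 scale. Scd1 had 2925, 5039.9 and 3954 RPKM in control and 773, 752 and 1562 RPKM in 16O mice (log2 fold change -2.02, standard error 0.310, adjusted p = 0.0187). Acacb had 19.1, 33.8 and 31.4 RPKM in control and 8.09, 6.94 and 13.9 RPKM in 16O mice (log2 fold change -1.58, standard error 0.283, adjusted p = 0.0376). Elovl5 had 198, 195 and 316 RPKM in 16O mice (log2 fold change -1.22, standard error 0.202, adjusted p = 0.0271). Groups did not overlap in any of these genes, and 16O replicate 3 was the highest of its group in each. Of 31 members other than Mogat1 3 fell and 0 rose, against 0.760% and 0.345% of all genes, and the median was -0.40 against 0.00. Limma called 0 without 16O replicate 2, control replicate 2 or control replicate 3 (11 to 13 at an unadjusted p under 0.05), without the filter (18) and with the 12 libraries of the time point (16). It called 1 (Scd1) without 16O replicate 1 and without the trend, 5 without 16O replicate 3 and 6 without control replicate 1. Limma-voom called 5, Mogat1 among them. After 28Si limma and limma-voom called 0 of 32, against 0.115% and 0.00885% of all genes that rose and fell. The median was -0.21 over the 31 members other than Mogat1. With Mogat1 included the median was -0.25, or -0.05 without 28Si replicate 2, and 6 members had an unadjusted p under 0.05. Scd1 had 2477, 1180.2 and 2439 RPKM in 28Si mice, below every control (log2 fold change -0.89, adjusted p = 0.436). Between the ions 0 of 32 members passed (7 had an unadjusted p under 0.05, limma-voom called 0, and limma called 1, Lpin1, without 28Si replicate 2 or 28Si replicate 3), against 0.400% of all genes. The 3 comparisons share their controls.

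**Figure D4:**
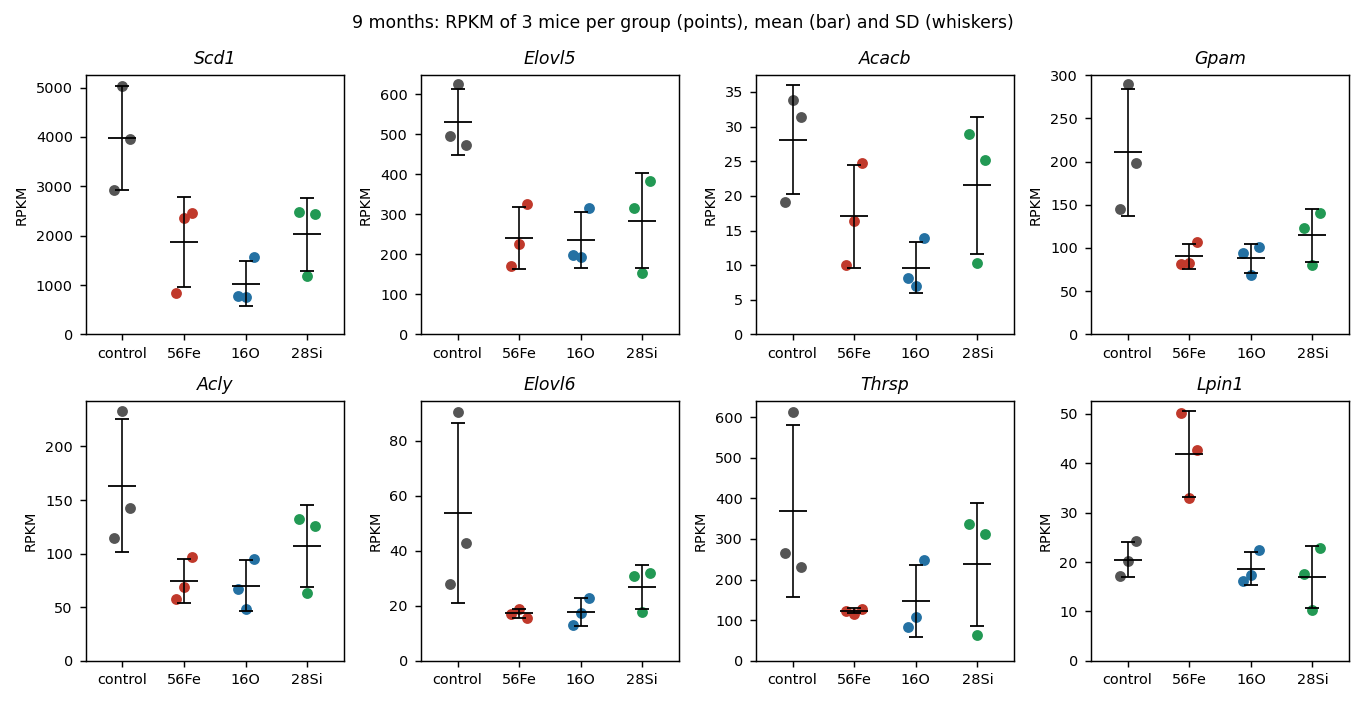
RPKM at 9 months of 8 members in control, 56Fe, 16O and 28Si mice, with points for the 3 mice, a bar for the mean and whiskers for the SD. Scd1 and Elovl5 have all control mice above all ion mice, and Lpin1 has all 56Fe mice above the rest.

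At 12 months limma called 0 of 31 tested members after each ion, and Mogat1 was below the filter. After 56Fe 0 had an unadjusted p under 0.05 (median 0.12), after 16O 2 did (median -0.19) and after 28Si 6 did (median 0.33), and limma-voom called 0 in each. Of all genes 0% rose and 0% fell after 56Fe, 0.00878% and 0% after 16O and 0.0176% and 0% after 28Si. Between the ions 0 of 31 passed (1 had an unadjusted p under 0.05, and limma-voom called 0), against 0% of all genes. The spread between mice was wide at this time. Srebf1 had 129, 18.1 and 142 RPKM after 16O, the low value being replicate 2, against 90.2, 80.3 and 115 RPKM in controls. Without 16O replicate 2 the median after 16O was 0.16, and limma called 0 (3 at an unadjusted p under 0.05). Without control replicate 2 the medians were -0.05, -0.40 and 0.13 after 56Fe, 16O and 28Si, and limma called 0 in each (0, 1 and 3 at an unadjusted p under 0.05). The sign of the median thus turned for 16O without its replicate 2 and for 56Fe without control replicate 2, and that for 56Fe turned also without 56Fe replicate 2, to -0.01. The Kupffer cell markers summed to 61.6 to 355 RPKM in controls, 80.7 to 629.7 RPKM after 56Fe, 73.5 to 409 RPKM after 16O and 69.6 to 169 RPKM after 28Si, and their part in these values was not tested.

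The control livers themselves changed over the year, which was tested over the 15 control libraries. From 1 to 2 months Thrsp fell from 184, 198 and 255 to 69.2, 38.7 and 96.6 RPKM (log2 fold change -1.77, standard error 0.362, adjusted p = 0.0382). Pnpla3 fell from 2.05, 2.60 and 0.906 to 0.0805, 0 and 0.254 RPKM (log2 fold change -3.504, adjusted p = 0.0203), with at most 5 reads in the 2-month libraries, so its fold depends on the pseudocount. Thus 2 of 32 members fell and 0 rose, against 0.193% and 0.378% of all genes (median -0.42 against 0.00). Fasn, at 81.9, 72.7 and 102 RPKM, was below every 1-month control (log2 fold change -1.48, adjusted p = 0.0761). Limma called 0 without 1-month replicate 1, 1-month replicate 2, 2-month replicate 1 or 2-month replicate 2 (12 to 14 at an unadjusted p under 0.05) and without the filter (15). It called 1 (Pnpla3) without 2-month replicate 3 and 5 without 1-month replicate 3.

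From 2 to 4 months Mlxipl, the gene of ChREBP, fell from 67.5, 66.9 and 71.9 to 26.3, 29.3 and 27.98 RPKM (log2 fold change -1.77, standard error 0.173, adjusted p = 5.21e-06). Thrsp rose from the 2-month values to 211, 247 and 231 RPKM (log2 fold change 1.38, standard error 0.362, adjusted p = 0.00677). Agpat2 rose from 10.4, 9.43 and 8.08 to 29.8, 29.3 and 38.971 RPKM (log2 fold change 1.33, standard error 0.185, adjusted p = 7.16e-05). None of the 3 overlapped between the times, and all 3 passed in all 6 fits without 1 library and under all 8 other settings. Dgat1 and Dgat2, the acyltransferases of the last step, rose as well (log2 fold changes 0.33 and 0.41, adjusted p = 0.0244 and 0.0385). Lpin2, another phosphatidate phosphatase gene, fell on the scaled values (log2 fold change -0.51, adjusted p = 0.0379) and had 21.4, 23.2 and 26.9 RPKM and then 30.1, 26.9 and 15.01 RPKM as deposited, which overlap. Altogether 4 of 32 members rose and 2 fell, against 21.5% and 19.7% of all genes, a share below that of all genes in both directions, and 3 passed without 2-month replicate 3. The percentage of mapped reads on transcripts went from a median of 58.7 to one of 81.5 between these control groups, and RPKM as deposited put the median of all genes 0.44 higher on the log2 scale than the scaled values did and called 10 members, 9 risen and 1 fallen, with a members' median of 0.43 where the scaled values gave -0.04. Kupffer cell markers moved alongside, with 8 of 8 higher and 3 risen, and sums of 37.6 to 55.8 RPKM and then of 124 to 139 RPKM. Of 7 sinusoidal endothelial markers 3 rose, Clec4g (0.74), Kdr (0.58) and Pecam1 (0.65), with sums of 33.02 to 46.7 RPKM and then of 63.5 to 71.8 RPKM. The stellate cell marker Rgs5 (0.75), the adipocyte marker Fabp4 (0.81) and 2 of 10 hepatocyte markers, Ttr and Serpina1a, rose, and the cholangiocyte markers Sox9 (-1.03) and Spp1 (-0.47) fell. The part of all these markers in the result was not tested.

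From 4 to 9 months lipogenic members rose together in the controls. Scd1 rose from 668, 1184 and 1181 to 2925, 5039.9 and 3954 RPKM (log2 fold change 1.96, standard error 0.352, adjusted p = 0.0072). Elovl6 rose from 15.9, 18.5 and 17.7 to 27.7, 90.5 and 42.7 RPKM (log2 fold change 1.42, standard error 0.348, adjusted p = 0.0418). The times did not overlap in either gene. Pnpla3 rose from 0.308, 0.279 and 0.467 to 1.06, 5.34 and 2.71 RPKM (log2 fold change 2.49, adjusted p = 0.0344) but did not pass at a pseudocount of 0.01. Mogat1, in the test through its 9-month values, had 3, 1 and 2 reads and then 22, 21 and 17 reads. Acacb, Elovl5, Gpam and Acly rose too, by 1.35, 1.28, 1.16 and 1.12 on the log2 scale (adjusted p = 0.0129, 0.00416, 0.0276 and 0.0226). In all 7 of 31 members other than Mogat1 rose and 0 fell, against 1.77% and 0.833% of all genes, with a median of 0.42 against 0.00. Scd1 and Elovl5 passed in all 6 fits without 1 library. They were the 2 that passed without 4-month replicate 3, 9-month replicate 2 or 9-month replicate 3, and 4 members passed without 4-month replicate 1 (Acly, Elovl5, Gpam and Scd1).

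From 9 to 12 months members fell again in the controls. Elovl5 fell from 496, 626 and 473 to 305, 150.1 and 322 RPKM (log2 fold change -1.08, standard error 0.208, adjusted p = 0.0153) and Elovl3 from 93.6, 43.7 and 28.7 to 21.3, 13.9 and 21.1 RPKM (log2 fold change -1.38, standard error 0.327, adjusted p = 0.0338). Gpam fell from 145, 289.5 and 198 to 136, 60.4 and 105 RPKM (log2 fold change -1.06, standard error 0.261, adjusted p = 0.0395). The times did not overlap in these 3 genes. Agpat2 and Acly fell with log2 fold changes of -1.01 and -0.999 (adjusted p = 0.012 and 0.0385). So 5 of 31 members other than Mogat1 fell and 0 rose, against 2.30% and 1.16% of all genes, with a median of -0.28 against -0.01. Mogat1 had 2, 0 and 1 reads at 12 months. Without 12-month replicate 2, the low library named above, or 12-month replicate 3, limma called 2 members, Elovl5 and Mogat1, without 9-month replicate 1 4 passed, and without 9-month replicate 2 limma called 0 (11 at an unadjusted p under 0.05). Mogat1 reached 0.5 RPKM in 4 of the 60 libraries and was below the filter in fits without a 9-month control. Markers of liver sinusoidal endothelium moved alongside, with 6 of 7 lower and 2 fallen, Clec4g (-0.89) and Kdr (-0.54), and sums of 73.5 to 95.1 RPKM at 9 months and of 53.1 to 66.1 RPKM at 12 months, and their part in the result was not tested.

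Fasn, Acly, Srebf1 and Thrsp varied in control mice as follows. Fasn had 108, 307 and 189.8 RPKM at 9 months and 125, 56.9 and 188 RPKM at 12 months, after the values of 1, 2 and 4 months given above. Its step from 4 to 9 months had a log2 fold change of 0.98 (adjusted p = 0.166) and the next one of -0.72 (adjusted p = 0.22). Acly had 91.8, 71.03 and 53.03 RPKM at 4 months, 115, 233 and 143 RPKM at 9 months and 87.7, 51.3 and 100.2 RPKM at 12 months, so that its 9-month values lay above those of 4 and 12 months. Srebf1, by comparison, had means of 131 ± 2.70, 80.5 ± 15.6, 102 ± 13.6, 119 ± 29.6 and 95.3 ± 18.1 RPKM (SD, n = 3) at 1, 2, 4, 9 and 12 months, and its steps had adjusted p values of 0.0576, 0.631, 0.706 and 0.338. Thrsp had 264, 612 and 230.3 RPKM at 9 months and 202, 74.5 and 180.4 RPKM at 12 months (log2 fold change -1.23, adjusted p = 0.0668). The mouse that stood highest at 9 months in Fasn, Acly and Thrsp was the same one, control replicate 2.

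**Figure D5:**
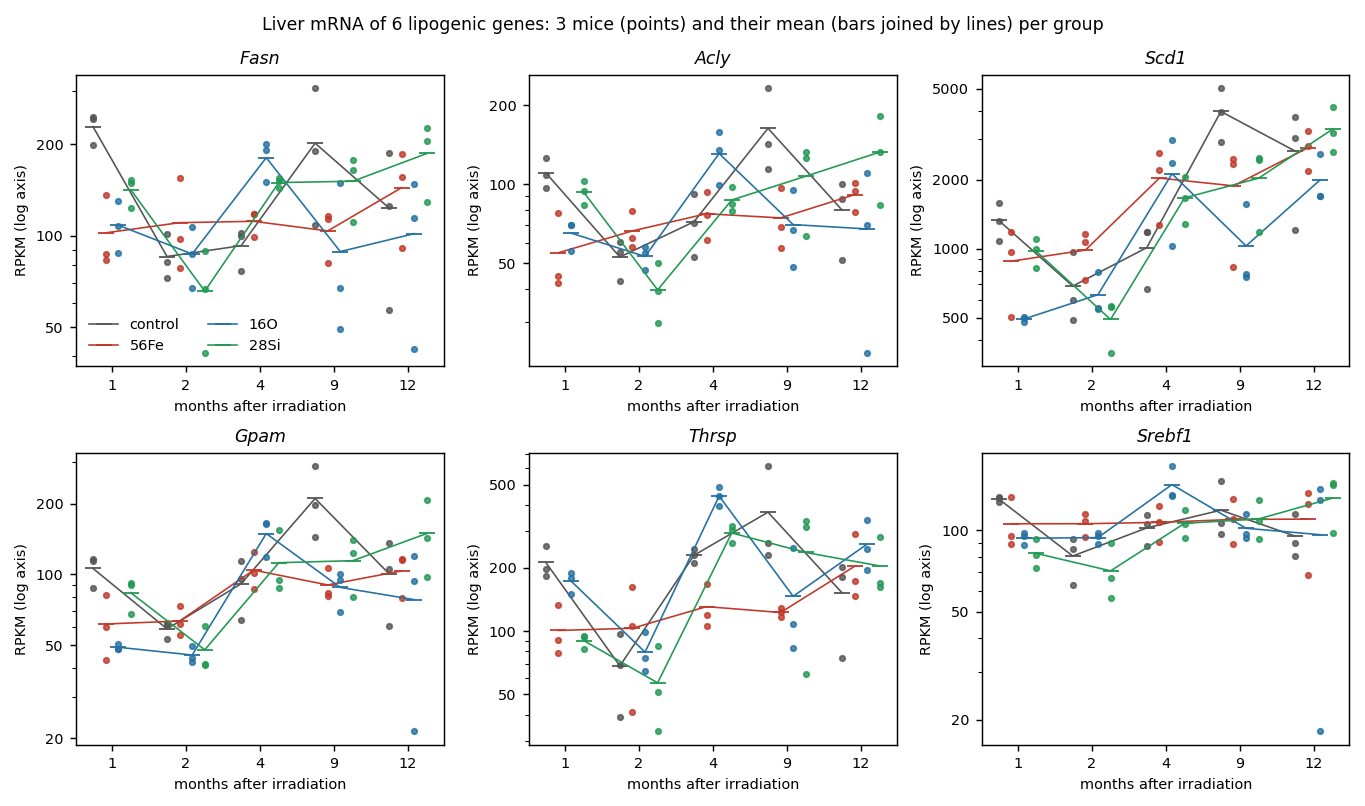
RPKM on a log axis of Fasn, Acly, Scd1, Gpam, Thrsp and Srebf1 in control, 56Fe, 16O and 28Si mice at 1, 2, 4, 9 and 12 months, with points for the 3 mice and bars joined by lines for the means. Control means of Fasn, Acly, Scd1, Gpam and Thrsp are higher at 9 months than at 4 months, and the lowest points at 12 months are 16O replicate 2 for Fasn, Acly, Gpam and Srebf1.

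Whether an ion's difference from control varied with time was tested by an interaction over all 60 libraries. For 56Fe 2 of 32 members did so, against 0.966% of all genes. Elovl6 had log2 fold changes of -0.95, 0.09, 0.18, -1.47 and 0.42 at 1, 2, 4, 9 and 12 months (adjusted p = 0.0472 from limma). Lpin1 had -0.54, 0.33, -0.91, 1.02 and -0.25 (adjusted p = 0.0494). For Lpin1 the sign thus turned between 4 and 9 months. For 16O 3 of 32 members varied with time, against 0.864% of all genes. Scd1 had -1.37, -0.03, 0.97, -2.02 and -0.19 (adjusted p = 0.00822), Elovl6 had -0.82, -0.16, 0.60, -1.48 and 0.47 (adjusted p = 0.0229), and Pnpla3, untested alone at 2 and 4 months, had an adjusted p of 0.0143. Scd1 passed in all 30 fits without 1 library and under all 9 other settings. Pnpla3 did not pass by limma-voom on recovered reads (adjusted p = 0.152) or without control replicate 2 of 9 months. Elovl6 did not pass after 16O without the filter or with the replicate block, nor in 4 of 30 fits without 1 library. For 28Si limma and limma-voom called 0 of 32 (12 at an unadjusted p under 0.05), against 0.0785% of all genes. Both 56Fe calls were near the threshold and were lost in RPKM as deposited, without the filter, without the trend and by limma-voom, and 20 of the 30 fits without 1 library called 0 members. For 16O the fits without 1 library called from 1 member, without control replicate 2 of 9 months, to 8, without 16O replicate 1 or 16O replicate 2 of 12 months.

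Genes of neighbouring pathways, held in lists, changed at the same times. At 1 month 9 of 17 genes of cholesterol synthesis and SREBP-2 fell after 56Fe (median log2 fold change -0.60) and 4 of 17 after 16O (-0.61), where the median after 28Si was -0.04. Mvd, which makes isopentenyl diphosphate, fell with log2 fold changes of -1.51 after 56Fe and -1.52 after 16O. Of 19 tested regulators of SREBP-1 and ChREBP, Insig1, which retains SREBPs in the endoplasmic reticulum, fell after 56Fe (-0.88) and 16O (-1.17) at 1 month. Its relative Insig2 rose after 28Si at 1 month (1.30) and after 56Fe at 4 months (1.04). Of 16 tested genes of carbon and NADPH supply, G6pdx, which makes NADPH, fell after 16O at 1 month (-1.502), and Khk, Idh1 and Tkt fell after 56Fe at 9 months. Of the other enzymes of fatty acid and glycerolipid synthesis, Acsl5 and Cyb5r3 fell after 56Fe at 9 months (2 of 21) and Cyb5r3 after 16O (1 of 20). The list of fatty acid oxidation and PPARalpha had 7 of 17 fallen after 56Fe and 4 of 17 after 16O at 9 months. Of all genes 2.26% and 0.760% fell there. Cd36 was in front (-3.08 and -3.82). The shared 9-month controls had themselves moved. In controls Cd36 and Cyp4a10 rose from 4 to 9 months (3.10 and 2.47) and fell to 12 months (-2.30 and -1.55). Fgf21 (2.13), Khk (0.78), Acsl5 (0.77) and Cyb5r3 (0.61) also rose in the control step to 9 months. Acaa1b, Acadm, Ehhadh, Hadhb and Idh1, fallen after 56Fe, did not pass in it. At 1 month 3 of 18 had fallen and 1 risen after 56Fe, and 4 had fallen after 16O. At 4 months after 56Fe 2 of 17 rose, Fgf21 (2.47) and Pdk4 (1.38).

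Genes of the circadian clock changed in some comparisons with ions at 1 and 4 months, and after 56Fe at 9 months limma called 0 of 16 (2 at an unadjusted p under 0.05). At 1 month after 28Si 5 of 16 fell and 1 rose, with Ciart (-2.38), Arntl (1.87) and Per1 (-1.86) in front as log2 fold changes. After 16O Nr1d1 fell (-0.75) and Dbp rose (0.56), and after 56Fe Dbp rose (0.64). At 4 months after 56Fe Arntl (2.05) and Clock (0.76) rose. Clock genes changed between control times as well. From 2 to 4 months Nr1d1 (-2.42), Bhlhe41 (-1.39), Per3 (-0.99), Dbp (-0.92), Cry2 (-0.89), Hlf (-0.83) and Tef (-0.70) fell in control mice. Arntl rose in control mice from 4 to 9 months (1.40) and fell from 9 to 12 months (-1.68). In that last step Per3 (1.19), Per2 (0.85) and Tef (0.50) rose. Between the ions at 1 month 15 of 16 clock genes differed, beside the 12.2% of all genes given above. The hour of collection is not given, and its part in the results on members was not tested.

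Of the 32 members 9 passed in none of the 27 tests, namely Acaca, Scd2, Elovl2, Fads1, Fads2, Gpat4, Agpat3, Lpin3 and Slc25a1. Acaca, the cytosolic acetyl-CoA carboxylase gene that acts between Acly and Fasn, had 19.1 to 70.3 RPKM and log2 fold changes from -0.53 to 0.33 over the 15 ion comparisons (lowest adjusted p = 0.199). The desaturases of polyunsaturated chains, Fads1 and Fads2, ranged from -0.37 to 0.14 and from -0.46 to 0.19, with lowest adjusted p values of 0.361 and 0.0752. Agpat3 had the narrowest range, from -0.07 to 0.19, and 0 of its 15 tests had an unadjusted p under 0.05, as had Fads1 0 of 15. The citrate carrier gene Slc25a1 ranged from -0.29 to 0.28. Elovl1, Agpat2, Lpin2, Dgat1, Dgat2, Pnpla3 and Mlxipl passed against control after no ion at any time but passed in a test between ions, between control times or with time.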

How the data were processed

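RNA of 60 left liver lobes was extracted with a column kit, depleted of ribosomal RNA, prepared with a kit whose strand setting is not given in the sources used here, and read as pairs of 50 bases. The authors cut the first 14 bases of each read, mapped in CLC Genomics Workbench to GRCm38 with Ensembl annotation 97 at length and similarity fractions of 95%, and tested raw counts of transcripts with edgeR. The values the authors deposited are RPKM for 123811 transcripts, a column per library, beside 20 columns of group means that were not used. A rise of a few abundant RNAs lowers the RPKM of all others, and the percentage of reads on transcripts differed between times, so libraries were scaled here.

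Group, time and replicate number came from the sample labels. Replicates were separate mice. RPKM were summed per gene (32 members, all 198 transcripts), scaled by trimmed means (30% of log ratios and 5% of levels trimmed), filtered at 0.5 RPKM in 3 libraries of a fit, and tested as log2(RPKM + 0.1) with limma 3.58.1 in R 4.3.3, with a variance trend and Benjamini-Hochberg adjustment over all genes. The 27 tests were 15 of an ion against control, 5 between ions, 4 between successive control times and 3 of ion by time. Printed RPKM are as deposited, and fold changes are of scaled values. Since the deposited RPKM hold whole-read steps, reads were recovered, with 99.8% to 100.0% of values of up to 30 reads whole within 0.02, at 11412665 to 40568208 mapped read pairs per library. That depth leaves Mogat1 and Pnpla3 at the counting limit.

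Deviations of ion and control samples with the same replicate number correlated above 0.1 in all 3 pairs in 1 of 15 comparisons. This was 16O at 12 months (0.372, 0.522 and 0.254), where replicate 2 was the low library of both groups, so it does not show a pairing. No label says that a number marks a litter or day, and the block changed no call there. Gene positions came from GENCODE 21 of the mouse, and promoters from RefSeq (GRCm38.p6). The fits were tested on simulated data with known changes. Named were all members that passed where these were at most 8, otherwise the 8 with the smallest p, per-library values being given for the 4 with the largest change and for Fasn, Acly, Scd1, Srebf1 and Thrsp, and up to 3 genes of each of 6 lists of neighbouring pathways. Some genes of these lists are not reported here. The members and lists were chosen with earlier results of these data known. Alternatives were other scaling, pseudocounts, filters, no trend, a replicate block, 12 libraries of a time point, leaving out each library and limma-voom on recovered reads.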

Additional observations from a re-analysis of the deposited data

Results flagged for a closer look

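Members differed between the 3 ions, by an F test in limma, or an ion's difference from control varied with time, by an interaction. At 1 month the adjusted p values between ions were 2.67e-05 for Elovl3, 0.000104 for Lpin1, 0.000158 for Pklr, 0.000831 for Agpat2, 0.00163 for Thrsp, 0.00359 for Acss2, 0.00363 for Elovl5 and 0.0099 for Elovl1. They were 0.0176 for Dgat2, 0.02001 for Acly, 0.0235 for Me1, 0.027 for Scd1 and 0.0334 for Gpam. At 4 months they were 0.00143 for Thrsp and 0.00656 for Aacs. Variation with time had adjusted p values of 0.0472 for Elovl6 and 0.0494 for Lpin1 after 56Fe, and of 0.00822 for Scd1, 0.0143 for Pnpla3 and 0.0229 for Elovl6 after 16O. The hour of collection is not given in the sources used here, and its part in these differences was not tested.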

How the results depend on the processing

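Of 254 counts of members under another setting, 203 stayed within 1.5 times the main count and 51 did not (15 higher, 36 lower), and the sign of 0 called fold changes turned. Of the 70 calls, 21 held under every setting that kept all libraries and 17 of them also without any 1 library. Of the 28 calls of an ion against control, only Scd1 and Gpam after 16O at 1 month were among these 17. The others of the 17 were from tests between ions, between control times or of ion by time. Only fits that tested the member count here. Mogat1 at the control step to 12 months is among the 17 through 3 such fits, as it was below the filter without any 9-month control. Its place there was thus set by the filter and is no sign of a stable call. Counts that moved are given from the main value to the other, and the cause was not tested. Without the variance trend they were, after 56Fe, 5 to 0 at 1 month, 3 to 0 at 4 months, 5 to 0 at 9 months and 2 to 0 with time, after 16O 8 to 2 at 1 month and 3 to 1 at 9 months, after 28Si 3 to 1 at 1 month and 1 to 0 at 4 months, and in controls 2 to 1, 8 to 4 and 6 to 3 for the steps to 2, 9 and 12 months. Without the filter they were 8 to 3 and 3 to 0 for 16O at 1 and 9 months, 5 to 0 for 56Fe at 9 months, 2 to 0 for 56Fe with time, 1 to 0 for 28Si at 4 months, 13 to 8 between ions at 1 month, and 2 to 0, 8 to 4 and 6 to 3 for the control steps to 2, 9 and 12 months. In RPKM as deposited, which moved the median of all genes by -0.17 to 0.44 against the scaled values, they were 8 to 3 for 16O and 3 to 0 for 28Si at 1 month, 1 to 0 for 28Si at 4 months, 2 to 0 for 56Fe with time, 13 to 6 and 0 to 1 between ions at 1 and 9 months, and 2 to 1, 6 to 10 and 6 to 3 for the control steps to 2, 4 and 12 months. A filter at 1 RPKM gave 3 to 5 for 16O with time and 0 to 1 between ions at 2 months. A pseudocount of 0.01 gave 2 to 1 for 56Fe with time, and one of 1 gave 0 to 1 (Mogat1) for 28Si with time. With the 12 libraries of the time point the counts at 9 months went from 3 to 0 for 16O and from 5 to 1 for 56Fe. Limma-voom on recovered reads, chosen after seeing the data, gave 5 to 9 and 5 to 8 for 56Fe at 1 and 9 months, 3 to 5 for 16O at 9 months, 1 to 0 for 28Si at 4 months, 2 to 0 for 56Fe with time, 0 to 1 between ions at 2 months and 2 to 1 for the control step to 2 months.

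With the replicate block the counts went from 5 to 8, 3 to 1 and 5 to 10 for 56Fe at 1, 4 and 9 months, from 8 to 14 and 3 to 5 for 16O at 1 and 9 months, from 3 to 0 and 1 to 0 for 28Si at 1 and 4 months, from 0 to 1 for 28Si with time and from 0 to 1 between ions at 9 months. In 0 of 15 comparisons did all 6 samples correlate best with their own number, and the correlations ran from -0.575 to 0.522. No paired analysis was possible because a number within 1 control time point is a single mouse, for the 4 control steps. Without 1 library the counts ran, at 1, 4 and 9 months, from 0 to 7, 0 to 5 and 0 to 7 for 56Fe and from 1 to 5, 0 to 3 and 0 to 0 for 28Si, and for 16O from 2 to 6 at 1 month and 0 to 6 at 9 months. They ran from 8 to 13, 0 to 9, 2 to 4, 0 to 1 and 0 to 0 between ions at 1, 2, 4, 9 and 12 months, from 0 to 5, 3 to 5, 2 to 9 and 0 to 8 for the 4 control steps, from 0 to 4 for 56Fe, 1 to 8 for 16O and 0 to 1 for 28Si with time, and stayed at 0 elsewhere. Where a fit without 1 library leaves 2 mice in a group, their spread is pooled with that of the other group. Counts for 56Fe at 9 months and for the control steps to 9 and 12 months include Mogat1, as does the limma-voom count of 5 for 16O at 9 months. The 1 member called for 28Si with time, at a pseudocount of 1 and with the replicate block, was Mogat1. These calls rest on the few reads of Mogat1 and are no sign of a change of the members. Depth limits Mogat1, with 3 reads or fewer in 49 libraries, and Pnpla3, with 3 reads or fewer in 5 libraries.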
